A study of Mus musculus with 6 samples.

Results

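The collagen genes described here are the genes that encode the alpha chains of the collagens. They were chosen by symbol alone, as every gene in the count files whose name is Col, a number, the letter a and a number, which gave 44 of the 23366 genes listed. Their messenger RNA was measured in palatal shelves of mouse embryos at E14.25, the stage around which the paired shelves, outgrowths of the maxillary processes, form the secondary palate. The series compared 3 wild type libraries (replicates 2, 3 and 4) with 3 libraries of the genotype Kmt2dfl/fl Wnt1-Cre (replicates 1, 2 and 3), called the knockout below. It asks how loss of the histone methyltransferase gene Kmt2d from the neural crest alters the developing face. Wnt1-Cre acts in the neural crest lineage, so the shelf epithelium, endothelium and blood cells of these embryos are outside the targeted lineage. The labels describe the libraries as biological replicates and do not say whether the wild type embryos carried the floxed alleles or Cre, or whether a library came from 1 embryo. The p-values below measure the spread between these libraries.

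Collagens are trimers of alpha chains wound into a triple helix, and many types need chains from more than one gene. Fibrillar collagens form the tensile fibrils of mesenchyme, skin and bone, cartilage has its own set of fibril collagens, and network-forming collagens build basement membranes. In the palatal shelf the mesenchyme lays down a fibrillar matrix, the epithelium and vessels rest on basement membranes, and bone and cartilage condensations arise nearby.

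Gene counts ranged from 12721979 to 24916079 per library, so that 1 CPM (a count scaled by the normalised library size) stood for 13.2 to 28.1 counts. Knockout replicate 2 stood apart from the other libraries. It had the fewest gene counts, 47.5% of its listed counts lay outside annotated genes against 12.3% to 18.1% elsewhere, and its log2 CPM correlated with the other libraries at 0.922 to 0.942. Results are therefore given with and without it. The 12 markers of palatal mesenchyme were all detected, with a summed level of 1258 to 1352 CPM in the wild type and 1513 to 1619 CPM in the knockout, led by Prrx1. Kmt2d, listed under its older symbol Mll2, had 193 ± 20.6 CPM in the wild type and 329 ± 184 CPM in the knockout (SD, n = 3 each; log2 fold change 0.77, edgeR's quasi-likelihood test, adjusted p = 0.368). Knockout replicate 2 was the highest library, at 539 CPM against 254 and 193 CPM in its group, and without it the log2 fold change was 0.21. Reads over all exons do not show whether floxed exons were lost, so this value checks no label.

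Collagen messenger RNA was lower in the knockout as a whole. Values are given in the order wild type replicates 2, 3 and 4, then knockout replicates 1, 2 and 3. The level summed over the 44 genes came to 16799, 13262 and 11868 CPM for the wild type and to 10445, 9913 and 9070.3 CPM for the knockout. Each knockout library lay below each wild type library, and the ratio of the means was 0.702, or 0.698 without knockout replicate 2. Before normalisation, the collagens made up 1.89%, 1.42% and 1.26% of wild type gene counts and 0.873%, 1.03% and 0.813% of knockout gene counts. The single gene Rn45s took 16.2%, 19.8% and 20.7% of wild type gene counts and 35.1%, 18.6% and 30.0% of knockout gene counts. Its larger share in knockout replicates 1 and 3 lowers the raw collagen shares of those libraries. In bulk tissue, fewer cells of a type and less RNA per cell cannot be told apart.

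Of the 44 genes, 40 passed the filter on low counts and were tested. Col1a1 and Col8a2 fell and no collagen gene rose at an adjusted p of 0.05 (edgeR's quasi-likelihood test, adjusted over all 14233 genes tested). The 2 falls were 5.0% of the collagens tested, where 0.436% of all genes tested fell and 0.0984% rose. Unadjusted p was under 0.05 with a lower level in 17 collagens and with a higher level in 0, where 6.69% of all genes tested were lower and 7.51% higher at that p. The log2 fold change was below 0 for 32 of the 40, where 48.5% of all genes tested were below 0. Its median was -0.34 over the 40 collagens and 0.011 over all genes tested. The knockout libraries lay wholly below the wild type libraries for 15 collagens and wholly above for 0. Among all genes tested these shares were 11.2% and 12.3%. Without knockout replicate 2, the collagen median was -0.44, Col5a3, Col6a3 and Col8a2 fell at the adjusted threshold, where 1.57% of all genes tested fell and 0.547% rose, and 23 collagens lay wholly below, where 15.9% of all genes did. With any other single library left out, no collagen passed the adjusted threshold, and 0 to 18 of all genes tested were then called lower. DESeq2 on the 6 libraries called 6 collagens lower, where it called 2.28% of all genes tested lower, and a fit with the replicate number as a block also called 6, where it called 1.37% of them.

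**Figure D1:**
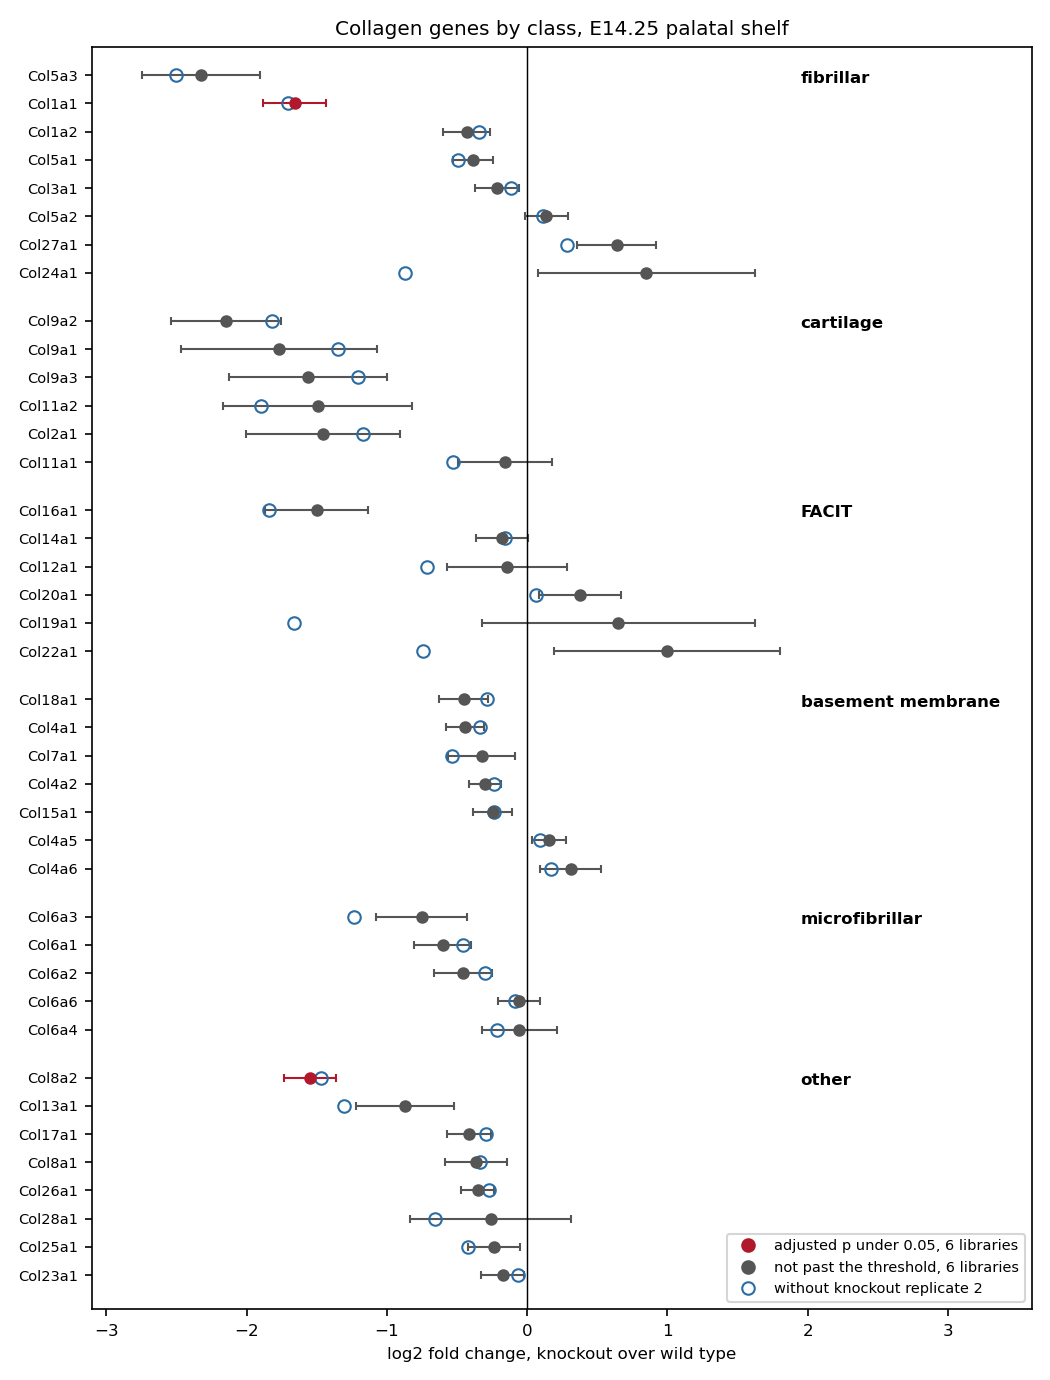
Log2 fold change (knockout over wild type, x axis) of the 40 tested collagen genes, grouped by class and ordered within each class. Filled points with bars are the estimates and standard errors from all 6 libraries, in red for the 2 genes past the adjusted threshold, and open points are the estimates without knockout replicate 2. Most points lie left of 0, and the open points of Col24a1, Col19a1 and Col22a1 lie on the other side of 0 from their filled points.

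The wild type libraries also differed among themselves. Wild type replicate 2 was the highest of its group for 30 of the 40 tested collagens and wild type replicate 4 the lowest for 28. Over all 14233 genes tested, the same libraries were the highest for 4555 and the lowest for 4866 genes. In the knockout, replicate 2 was the highest for 20 collagens and the lowest for 15, and replicate 3 was the lowest for 19. Over all 14233 genes tested, knockout replicate 2 was the highest for 5878 and the lowest for 6154, and knockout replicate 3 the lowest for 4474. Per kilobase of transcript, the most abundant collagens of the wild type shelf were Col3a1 at 451 CPM per kb, Col1a2 at 401 and Col1a1 at 377, whose ranges over the wild type libraries overlapped. The next in order, again with overlapping ranges, were Col5a2 at 94.3, Col2a1 at 90.8, Col6a1 at 88.0, Col6a2 at 86.7 and Col4a1 at 85.5 CPM per kb. In the knockout Col1a1 stood at 120 CPM per kb, against 388 for Col3a1 and 297 for Col1a2.

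The fibrillar class held 8 genes, all tested, of which Col1a1 fell and none rose. Type I collagen, the main fibril protein of mesenchyme and bone, is a trimer of Col1a1 and Col1a2 chains. Col1a1 was at 2899, 2123 and 1686 CPM in the wild type and at 796, 744 and 588 CPM in the knockout. The lowest wild type library had more than the highest knockout library by a wide gap, and the spread was broader in the wild type. The log2 fold change was -1.66 with a standard error of 0.22, a 3.15-fold fall (edgeR's quasi-likelihood test, adjusted p = 0.0376). Without knockout replicate 2 the log2 fold change was -1.70 and the adjusted p 0.0813. The adjusted p stood between 0.0797 and 0.190 with any of the 6 libraries left out, so that the call rested on the full set of libraries while the direction did not. Osteoblasts also express Col1a1. Over the 12 osteoblast markers the summed level was 456, 467 and 293 CPM in the wild type and 485, 565 and 347 CPM in the knockout, with 0 of 9 tested markers past the threshold and Bglap at 0 to 0.378 CPM. The osteoblast sums of the groups thus overlapped where those of Col1a1 did not.

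Col1a2, the partner chain, was at 2488, 2120.1 and 1823 CPM in the wild type and 1822, 1364 and 1587 CPM in the knockout. The groups did not overlap, but wild type replicate 4 and knockout replicate 1 were nearly level. Its log2 fold change was -0.43 (standard error 0.17, edgeR's quasi-likelihood test, adjusted p = 0.333). The ratio of Col1a1 to Col1a2, both per kb, was 1.05, 0.903 and 0.834 for the wild type and 0.394, 0.492 and 0.334 for the knockout. The chains of type I collagen were therefore measured at close to even levels in the wild type, and at unequal levels in each knockout library. Relative to Col3a1, Col1a1 was at 0.830 ± 0.175 in the wild type and 0.313 ± 0.067 in the knockout (SD, n = 3 each).

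The promoter window of Col1a2 is shown because this chain did not pass the threshold while its partner did. It is the 250 bases before the RefSeq start of Col1a2 (GRCm38.p6, chr6:4505368-4505617, + strand), written from 5′ to 3′. Capitals mark CCAAT and GGGCGG or their reverse complements ATTGG and CCGCCC, the boxes named for CCAAT-binding and Sp-type factors.
Col1a2: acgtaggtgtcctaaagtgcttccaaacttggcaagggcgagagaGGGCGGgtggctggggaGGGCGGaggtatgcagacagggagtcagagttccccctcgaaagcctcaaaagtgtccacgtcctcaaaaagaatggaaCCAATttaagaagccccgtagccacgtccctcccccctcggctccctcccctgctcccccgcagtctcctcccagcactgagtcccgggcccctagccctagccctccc
The window held 1 CCAAT, 109 bases before the start, and 2 GGGCGG, 205 and 188 bases before it, all on the gene's own strand. Its GC content was 62.0%, against a median of 52.4% over all 32851 windows of the table. CCAAT was found on either strand in 33.8% of all windows and GGGCGG in 32.7%. Promoter entries were matched for 35 of the 44 collagens, 13 of which held a CCAAT and 21 a GGGCGG. Col1a1 is among the 9 genes with no matched entry.

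Col3a1, the chain of type III collagen, which forms thin fibrils with type I in soft tissue, was at 2716, 2382 and 2428 CPM in the wild type and 2523, 1804 and 2147 CPM in the knockout. The groups overlapped, with knockout replicate 1 inside the wild type range. The log2 fold change was -0.22 (standard error 0.16, adjusted p = 0.533 by edgeR's quasi-likelihood test). Type V collagen starts fibrils and limits their width. Its chains Col5a1 and Col5a2 had log2 fold changes of opposite sign, neither passed the threshold, and the difference between them was not tested. Col5a1 was at 741, 600.3 and 607 CPM in the wild type and 489, 563 and 441 CPM in the knockout, so that the groups did not overlap (log2 fold change -0.38, adjusted p = 0.323). Col5a2 was at 689.8, 633 and 551 CPM against 786, 702 and 574 CPM, with overlapping groups and the knockout mean above the wild type mean (log2 fold change 0.14, adjusted p = 0.685). The ratio of Col5a1 to Col5a2 per kb was 0.821 ± 0.064 in the wild type and 0.576 ± 0.076 in the knockout (SD, n = 3 each) and the groups did not overlap.

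Col5a3, the rarest type V chain, was at 6.16, 3.94 and 2.71 CPM in the wild type and 0.569, 1.06 and 0.939 CPM in the knockout, from 173, 88 and 63 counts against 9, 14 and 17. All knockout libraries lay below all wild type libraries. Its log2 fold change of -2.32 (standard error 0.42) was the lowest of the 40 collagens, and it missed the threshold with all 6 libraries (edgeR's quasi-likelihood test, adjusted p = 0.0827). Without knockout replicate 2 it passed, at -2.50 (adjusted p = 0.0365). The remaining fibrillar genes, Col24a1 and Col27a1, had log2 fold changes of 0.85 and 0.64, with adjusted p of 0.615 and 0.361. Col24a1, named after its values were seen, was at 93.5 CPM in knockout replicate 2 and at 10.4 and 13.4 CPM in the other knockout libraries, both below the wild type range of 15.8 to 26.1 CPM. The median log2 fold change of the class was -0.30, or -0.42 without knockout replicate 2.

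**Figure D2:**
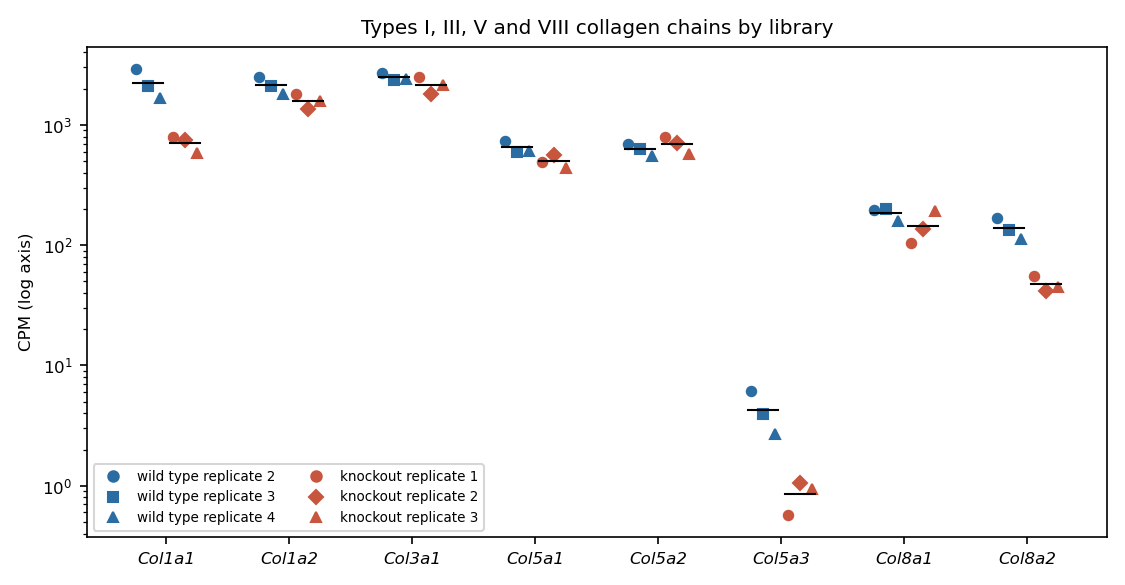
CPM (log axis) of type I, III, V and VIII collagen chains in each library, with wild type in blue, knockout in red and a black line at each group mean. Col1a1, Col5a3 and Col8a2 show a clear gap between the groups, whereas Col3a1, Col5a2 and Col8a1 overlap.

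Type VIII collagen forms short-chain networks in vessel walls and under specialised endothelia and mesenchyme, and is built from Col8a1 and Col8a2. Col8a2 had the smallest adjusted p of the collagens. Its level was 169.7, 133 and 112 CPM in the wild type and 55.8, 41.4 and 44.8 CPM in the knockout, so that every knockout library was lower. The log2 fold change was -1.55 with a standard error of 0.18, a 2.92-fold fall (edgeR's quasi-likelihood test, adjusted p = 0.0253). Without knockout replicate 2 it was -1.47 (adjusted p = 0.0267), whereas leaving out any of the other 5 libraries gave an adjusted p of 0.0602 to 0.153. Col8a1 was at 195, 199.9 and 160.1 CPM in the wild type and 104, 136 and 193 CPM in the knockout. Knockout replicate 3 lay within the wild type range (log2 fold change -0.36, adjusted p = 0.466). The ratio of Col8a2 to Col8a1 per kb was 1.03, 0.784 and 0.827 for the wild type and 0.636, 0.359 and 0.274 for the knockout. Endothelial cells, which can express type VIII collagen, had a summed level of 281 to 310 CPM over 8 markers in the wild type and 217 to 253 CPM in the knockout, with none at 0. Of the 8, 0 passed the threshold, where 0.436% of all genes tested fell. The log2 fold change was below 0 for all 8, where 48.5% of all genes tested were below 0. The knockout lay wholly below for 6, where 11.2% of all genes tested did. The part of endothelial cells in the fall of Col8a2 was not tested.

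The promoter windows of both type VIII genes are shown because only one of them passed the threshold. They are the 250 bases before the RefSeq starts of Col8a1 (GRCm38.p6, chr16:57754738-57754987, - strand) and Col8a2 (chr4:126286544-126286793, + strand), each written from 5′ to 3′ on the strand of the gene. Capitals mark GGGCGG or CCGCCC, and neither window held CCAAT or ATTGG.
Col8a1: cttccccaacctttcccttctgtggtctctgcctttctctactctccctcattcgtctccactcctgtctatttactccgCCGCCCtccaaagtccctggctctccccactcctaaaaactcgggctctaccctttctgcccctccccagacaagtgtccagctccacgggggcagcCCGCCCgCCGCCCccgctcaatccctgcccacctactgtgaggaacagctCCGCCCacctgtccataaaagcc
Col8a2: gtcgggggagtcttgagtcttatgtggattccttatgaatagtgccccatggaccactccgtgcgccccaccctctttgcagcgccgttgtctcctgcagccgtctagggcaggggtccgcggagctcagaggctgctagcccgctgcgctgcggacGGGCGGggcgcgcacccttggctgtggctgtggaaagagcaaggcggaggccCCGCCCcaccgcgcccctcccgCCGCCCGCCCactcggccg
Each window held 4 GGGCGG matches. In Col8a1 they lay 170, 73, 66 and 23 bases before the start, all on the other strand. In Col8a2 they lay 93 bases before the start on the gene's strand and 41, 19 and 15 bases before it on the other strand, the last pair overlapping. GC content was 60.8% for Col8a1 and 70.0% for Col8a2. The windows had the same number of matches. Whether these matches bear on the level of either gene was not tested.

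The cartilage class had the lowest median. It holds Col2a1, the main fibril chain of cartilage, the type IX chains on the fibril surface, the type XI chains inside the fibril, and Col10a1 of hypertrophic cartilage. Of its 7 genes 6 were tested and 0 passed the threshold in either direction. All 6 had a negative log2 fold change with a median of -1.53, or -1.28 without knockout replicate 2. Col2a1 was at 879.9, 265 and 245 CPM in the wild type and 182, 92.6 and 233 CPM in the knockout. Wild type replicate 2 was far above all other libraries, and the groups did not overlap although wild type replicate 4 and knockout replicate 3 were close (log2 fold change -1.45, standard error 0.55, adjusted p = 0.323 by edgeR's quasi-likelihood test). Without wild type replicate 2 the value was -0.59 and the median of the class -0.71.

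Col9a2 differed from that pattern, with a more even spread in the wild type. It was at 122, 88.4 and 66.9 CPM in the wild type and 27.1, 9.76 and 25.8 CPM in the knockout. The lowest wild type library was well above the highest knockout library, and the log2 fold change was -2.15 (standard error 0.39, adjusted p = 0.0833 by edgeR's quasi-likelihood test), or -1.89 without wild type replicate 2. The other type IX chains followed Col2a1. Col9a1 was at 131, 41.8 and 33.2 CPM against 20.1, 5.90 and 34.3 CPM, and Col9a3 at 84.5, 30.7 and 25.8 CPM against 21.4, 6.43 and 19.8 CPM. Both were highest in wild type replicate 2 and lowest in knockout replicate 2, with log2 fold changes of -1.77 and -1.56 (adjusted p of 0.328 and 0.315), or -0.90 and -0.83 without wild type replicate 2. Per kb, the ratio of Col9a2 to Col9a1 was 1.23, 2.77 and 2.64 for the wild type and 1.76, 2.17 and 0.986 for the knockout, and that of Col9a3 to Col9a1 was 0.905 ± 0.085 and 1.15 ± 0.36 (SD, n = 3 each). Both ratios overlapped between the groups.

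Of the type XI chains, Col11a1, which is expressed in mesenchyme as well as cartilage, was at 431, 251 and 208 CPM in the wild type and 208, 384 and 206 CPM in the knockout. Knockout replicate 2 lay among the wild type libraries, and the log2 fold change was -0.16 (adjusted p = 0.846). Col11a2 was at 69.8, 20.4 and 10.5 CPM against 11.6, 17.6 and 6.74 CPM, with overlapping groups (log2 fold change -1.49, or -0.37 without wild type replicate 2). The ratio of Col11a2 to Col11a1 per kb was 0.205, 0.103 and 0.064 for the wild type and 0.071, 0.058 and 0.042 for the knockout, which overlapped. Col10a1 had 1 count in all 6 libraries together, and the 3-count limit of a library with 0 counts was 0.129 to 0.227 CPM.

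Of the chondrocyte markers, 1 of 10 tested passed the threshold. The 11 markers found, none at 0 in all libraries, had a summed level of 373, 229 and 182 CPM in the wild type and 246, 310 and 246 CPM in the knockout, which overlapped. Sox6 and Sox9 had the highest means in that sum. With Sox5, they were the 3 tested markers with a log2 fold change above 0. The log2 fold change was below 0 for the other 7, where 48.5% of all genes tested were below 0, and the median was -1.41. The knockout libraries lay wholly below the wild type libraries for 5 of the 10 and wholly above for 1. Among all genes tested these shares were 11.2% and 12.3%. Mia fell (log2 fold change -2.03, adjusted p = 0.0416, and up to 0.243 with 1 library left out), and the matrix gene Acan was at 48.6, 9.54 and 6.80 CPM against 6.45, 1.06 and 3.701 CPM. Acan, like Col2a1, was highest in wild type replicate 2 and lowest in knockout replicate 2. Sox6, the marker with the highest mean, was at 98.5, 87.5 and 61.1 CPM in the wild type and 88.6, 182 and 86.0 CPM in the knockout. Knockout replicate 2 was its highest library, and the log2 fold change was 0.53, or 0.073 without that library. How far the amount of cartilage in each dissection sets the cartilage collagen values was not tested.

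**Figure D3:**
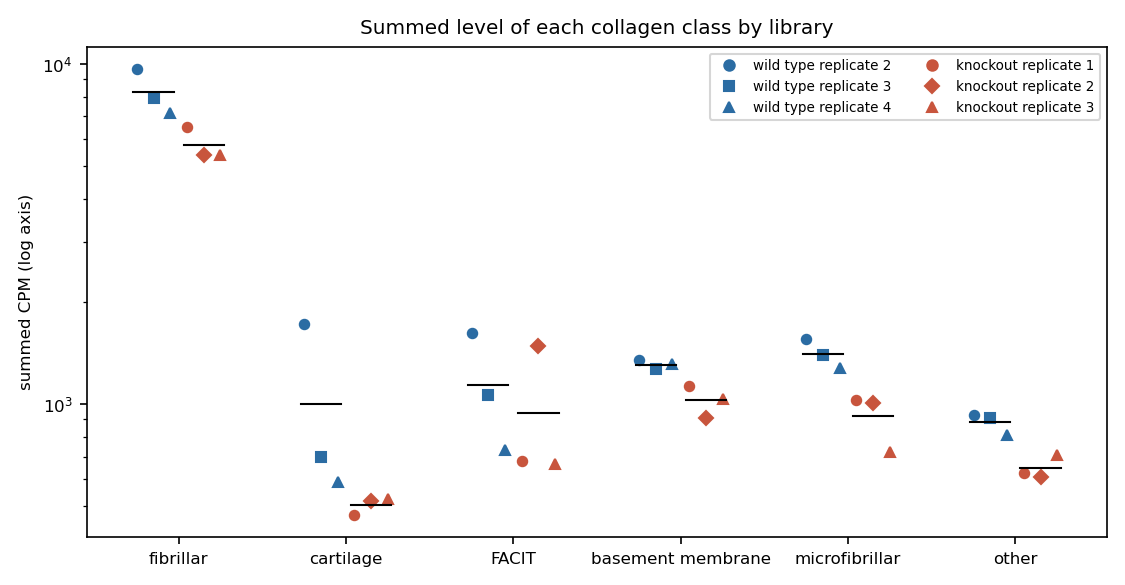
Summed CPM (log axis) of each collagen class in each library, with wild type in blue, knockout in red and a black line at each group mean. Every class but FACIT has all knockout libraries below all wild type libraries in its sum, which is weighted to the most abundant members. Gene by gene, the knockout lay wholly below for 4 of 8 tested fibrillar, 3 of 6 cartilage and 1 of 6 FACIT genes. It did so for 3 of 7 basement membrane, 1 of 5 microfibrillar and 3 of 8 other genes. Among all genes tested this share was 11.2%. The cartilage sum of wild type replicate 2 (1719 CPM) lies far above its group's 697 and 589.8 CPM. The FACIT sum of knockout replicate 2 (1479 CPM) lies far above its group's 681 and 665 CPM.

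The FACIT collagens, short for fibril-associated collagens with interrupted triple helices, attach to the surface of fibrils. The type IX chains, also on the fibril surface, were placed in the cartilage class. Col9a1, Col9a2 and Col9a3 had log2 fold changes of -1.77, -2.15 and -1.56, and the FACIT values here leave them out. All 6 genes placed in this class were tested and 0 passed the threshold in either direction. The median log2 fold change was 0.12 with all libraries and -0.73 without knockout replicate 2. Its sign also turned with the method, to -0.16 with limma voom and to -0.037 with the replicate number as a block. Col16a1 was at 229, 187 and 110.2 CPM in the wild type and 63.5, 87.2 and 35.4 CPM in the knockout. All knockout libraries lay below all wild type libraries (log2 fold change -1.50, standard error 0.37, adjusted p = 0.176 by edgeR's quasi-likelihood test), and the value was -1.84 without knockout replicate 2. Col14a1, found on fibrils of dense connective tissue, was at 139.9, 92.3 and 92.3 CPM against 87.3, 91.6 and 108 CPM, which overlapped (log2 fold change -0.18).

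The other FACIT genes were highest of all 6 libraries in knockout replicate 2. Col12a1, of tendon and fascia, was at 1230.4, 767 and 517 CPM in the wild type and 517, 1250.2 and 513 CPM in the knockout. Col22a1, a collagen of the junction between muscle and tendon, was at 6.16, 5.02 and 2.88 CPM against 3.16, 22.9 and 2.54 CPM. Col19a1 was at 6.26, 2.42 and 2.88 CPM against 1.77, 16.2 and 0.773 CPM, and Col20a1 at 5.98, 6.41 and 5.90 CPM against 8.16, 11.0 and 4.75 CPM. The other knockout libraries lay just below the wild type range for Col12a1 and below it for Col19a1, and overlapped it for Col22a1 and Col20a1. Log2 fold changes were -0.14, 0.997, 0.65 and 0.38 with all libraries and -0.71, -0.74, -1.66 and 0.065 without knockout replicate 2, for Col12a1, Col22a1, Col19a1 and Col20a1 in that order. None passed the threshold in either fit. The 10 skeletal muscle markers, none at 0, had a summed level of 1177 CPM in knockout replicate 2 and 159 to 396 CPM in the other 5 libraries, led by Myh3 at 804 CPM. Their part in the high FACIT values of that library was not tested.

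The basement membrane class showed small differences. It holds the type IV network chains, Col7a1 of anchoring fibrils, and Col15a1 and Col18a1, which carry glycosaminoglycans. Of 9 genes 7 were tested and 0 passed the threshold in either direction. The median log2 fold change was -0.30, or -0.24 without knockout replicate 2. Col4a1 was at 591, 540.3 and 566 CPM in the wild type and 464, 348 and 439 CPM in the knockout, and Col4a2 at 397, 362 and 379 CPM against 341, 278 and 308 CPM. These chains form the common type IV trimer, neither pair of groups overlapped, and the log2 fold changes were -0.44 and -0.30 (edgeR's quasi-likelihood test, adjusted p of 0.263 and 0.327). Their ratio per kb was 1.45, 1.46 and 1.45 for the wild type and 1.33, 1.22 and 1.39 for the knockout. The RefSeq starts of these genes lie 21 bases apart on opposite strands (GRCm38.p6).

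Col18a1 was at 169, 184 and 194 CPM in the wild type and 153, 98.2 and 149 CPM in the knockout, again with no overlap (log2 fold change -0.45, adjusted p = 0.327). Col15a1 and Col7a1 overlapped between the groups. Col15a1 was at 71.7, 52.9 and 58.5 CPM against 56.4, 50.02 and 48.2 CPM, and Col7a1 at 48.7, 63.9 and 52.4 CPM against 47.6, 55.6 and 28.6 CPM. Col4a6 was at 10.002, 10.7 and 7.96 CPM in the wild type and 12.9, 13.9 and 8.78 CPM in the knockout, with a log2 fold change of 0.31 (adjusted p = 0.515). Col4a5, the only other tested member above 0, overlapped between the groups, with a log2 fold change of 0.15. Col4a3 had 9 counts or fewer in each library and Col4a4 16 or fewer, and neither was tested. The 10 epithelial markers, none at 0, summed to 594, 673 and 739 CPM in the wild type and 545, 318 and 570.2 CPM in the knockout. Of these markers 0 passed the threshold, or 2 without knockout replicate 2, where 0.436% and 1.57% of all genes tested fell. All 10 had a log2 fold change below 0, where 48.5% of all genes tested did. The knockout lay wholly below for 7, where 11.2% of all genes tested did. The endothelial sums given above were likewise lower in each knockout library. The part of either cell type in the basement membrane values was not tested.

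Type VI collagen forms beaded microfibrils around cells from Col6a1, Col6a2 and one further chain, most often Col6a3. Of the 6 microfibrillar genes 5 were tested and 0 passed the threshold with all libraries, with a median log2 fold change of -0.45, or -0.30 without knockout replicate 2. Col6a1 was at 372, 357 and 353 CPM in the wild type and 320.5, 183 and 209 CPM in the knockout, with no overlap (log2 fold change -0.60, standard error 0.20, adjusted p = 0.292 by edgeR's quasi-likelihood test). Col6a2 was at 431, 385 and 394 CPM against 395, 224 and 264 CPM, so that knockout replicate 1 overlapped the wild type (log2 fold change -0.45, adjusted p = 0.367). Col6a3 was at 737, 633 and 511 CPM in the wild type and 299, 582 and 238 CPM in the knockout. Here knockout replicate 2 lay within the wild type range while the other knockout libraries were far below it. Its log2 fold change was -0.75 (adjusted p = 0.353) with all libraries and -1.23 (adjusted p = 0.0241) without knockout replicate 2. The ratio of Col6a3 to Col6a1 per kb was 0.804, 0.718 and 0.588 for the wild type and 0.378, 1.29 and 0.464 for the knockout. Knockout replicate 2 was therefore the highest of the 6 libraries in this ratio and the others of its group the lowest. Col6a4 and Col6a6 were below 11 CPM in every library with log2 fold changes of -0.054 and -0.060, and Col6a5, with 8 counts or fewer in each library, was not tested.

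**Figure D4:**
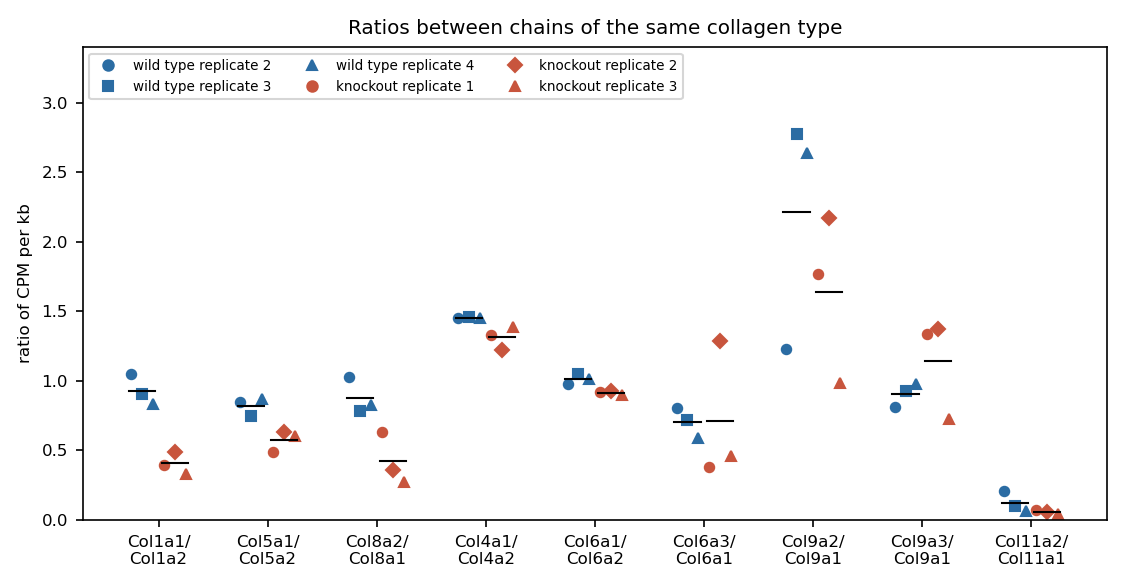
Ratio of chains of the same collagen type, each as CPM per kb of transcript, in each library, with wild type in blue, knockout in red and a black line at each group mean. The groups do not overlap for Col1a1 to Col1a2, Col5a1 to Col5a2, Col8a2 to Col8a1, Col4a1 to Col4a2 and Col6a1 to Col6a2, and they overlap for Col6a3 to Col6a1, where knockout replicate 2 is at 1.29, for both type IX ratios and for Col11a2 to Col11a1.

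Among the other collagens beside type VIII, Col17a1, a transmembrane collagen of epithelial hemidesmosomes, was at 73.6, 90.1 and 71.5 CPM in the wild type and 68.5, 47.7 and 60.4 CPM in the knockout. The groups did not overlap, the log2 fold change was -0.41 (adjusted p = 0.327 by edgeR's quasi-likelihood test), and the lowest library was the one with the lowest epithelial markers. Col26a1 was at 218, 199 and 213 CPM against 169, 144 and 181 CPM, also without overlap (log2 fold change -0.35, adjusted p = 0.283). The transmembrane collagens Col23a1 and Col25a1 overlapped between the groups. Col23a1 was at 133, 151 and 133 CPM against 149, 102 and 118 CPM, and Col25a1 at 127, 131 and 113 CPM against 76.5, 129.6 and 109 CPM. Col13a1 and Col28a1, with log2 fold changes of -0.87 and -0.26, overlapped between the groups as well. All 8 genes of this class had a negative log2 fold change, with a median of -0.36, or -0.38 without knockout replicate 2, and Col8a2 was the only one past the threshold in either fit.

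The collagens differ from most genes in base composition. Of the 40 tested, 23 belonged to the top of 4 equal groups of genes by transcript GC content and 0 to the bottom group. Knockout replicate 2 had a median log2 difference from the wild type mean of 0.24 in the group of lowest GC content and -0.22 in that of highest, while the other knockout libraries stayed between -0.031 and 0.088. Across the 40 collagens the log2 fold change correlated with GC content at r = -0.54 and rho = -0.60, and at r = -0.40 and rho = -0.32 without that library. These genes share their libraries, so the correlation is a description. With the GC trend of each library removed, Col1a1 stood at -1.58 (adjusted p = 0.0454, edgeR's quasi-likelihood test) and Col8a2 at -1.48 (adjusted p = 0.0240), the collagen median was -0.29, and r was -0.50. These were the 2 collagens past the threshold there, where 0.457% of all genes tested fell. With knockout replicate 2 left out as well, Col5a3, Col6a3 and Col8a2 passed, where 1.68% of all genes tested fell.

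**Figure D5:**
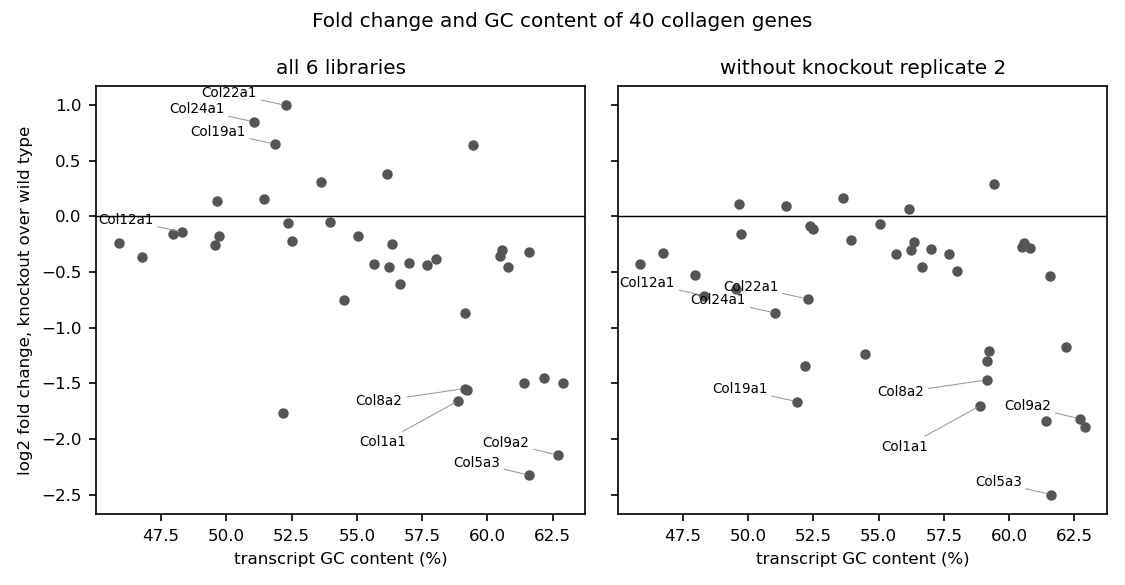
Log2 fold change (knockout over wild type) against transcript GC content in percent for the 40 tested collagen genes, with all 6 libraries on the left and without knockout replicate 2 on the right. Genes of high GC content include those with the lowest values, and Col22a1, Col24a1 and Col19a1 drop below 0 once that library is left out.

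Collagen needs other gene products to be hydroxylated, folded, secreted, trimmed and cross-linked. Of 75 such genes listed, 70 were tested, 4 fell and 0 rose (5.71% lower, where 0.436% of all genes tested fell), and the median log2 fold change was -0.22. It was below 0 for 54 genes and above 0 for 16, where 48.5% of all genes tested were below 0. The knockout libraries lay wholly below the wild type libraries for 26 and wholly above for 4. Among all genes tested these shares were 11.2% and 12.3%. Among 17 genes of hydroxylation, glycosylation and folding 0 passed, and the smallest p was that of Leprel4, a partner of collagen-modifying enzymes in the endoplasmic reticulum (log2 fold change -0.51, adjusted p = 0.112). Among 7 tested genes of secretion 0 passed, and the smallest p was that of Creb3l1, a transcription factor of the secretory pathway that activates Col1a1 in osteoblasts. It was at 30.3, 27.2 and 24.8 CPM in the wild type and 10.6, 15.7 and 5.58 CPM in the knockout, with no overlap (log2 fold change -1.37, adjusted p = 0.172, and 0.0177 without knockout replicate 2).

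Of 14 genes of propeptide removal and cross-linking, Pcolce and Loxl1 fell. Pcolce, which enhances removal of the C-terminal propeptide of fibrillar procollagens, was at 46.0, 42.6 and 33.3 CPM in the wild type and 7.34, 3.94 and 5.03 CPM in the knockout (log2 fold change -2.90, adjusted p = 0.0127 by edgeR's quasi-likelihood test). Loxl1, a lysyl oxidase, was at 53.6, 51.6 and 49.1 CPM against 22.02, 11.2 and 11.2 CPM (log2 fold change -1.80, adjusted p = 0.0436). Neither pair of groups overlapped. Of 14 tested fibril-associated proteins Sparc fell, which binds collagen, from 475 ± 31.8 to 238 ± 17.96 CPM (SD, n = 3 each; log2 fold change -0.998, adjusted p = 0.0212, edgeR). The 16 listed fibril-associated genes summed to 4828, 4543 and 4304 CPM in the wild type and 4656, 4801 and 4470 CPM in the knockout, which overlapped. Of 9 tested receptors 0 passed, with Ddr1 the closest (log2 fold change -0.61, adjusted p = 0.146). Of 9 tested degradation genes Ctsk fell, a protease that cleaves the triple helix (log2 fold change -1.88, adjusted p = 0.0451). Without knockout replicate 2, 11 of these genes fell, where 1.57% of all genes tested did, with Loxl1 no longer among them (adjusted p = 0.0597). Without knockout replicate 1, 2 fell, where 0.124% of all genes tested did. Leaving out any of the other 4 libraries left 0.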

How the data were processed

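Per the labels' protocols, tissue went into Trizol, libraries came from a stranded mRNA kit, and both ends were read for 25 bp. Per the submitters' processing notes, the tools were TopHat2, SAMtools and HTSeq and the build was mm9. Neither annotation nor strand setting is given in the sources used here. Raw counts per gene symbol, not normalised, are what the authors deposited, with 1 file per library. The 5 category lines of the counting program stayed out of library sizes and tests. Without a stated strand setting, overlapping genes on opposite strands could share counts.

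TMM size factors and filterByExpr were applied, and counts were tested over all genes with edgeR 4.0.16 in R 4.3.3 (robust quasi-likelihood test, no covariate), with Benjamini-Hochberg adjustment at 0.05. The test was checked on simulated counts with the same spread for every gene, no outlying library and no GC trend. That check does not cover a library such as knockout replicate 2. No pair of libraries in a group matched within sampling noise. CPM per kb and GC content used the longest protein-coding transcript of each symbol in GENCODE vM21, which is of another build than the counts. Each printed promoter comes from the RefSeq table of GRCm38.p6. Intervals and the 3-count limits cover counting error only, since the reads carry no molecular identifiers.

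The collagen classes, the collagen pathway lists, the marker lists and the tests were chosen with earlier results of these data known. Named with every library were collagens past the threshold, the 4 of highest mean CPM in each class and the 2 of smallest p among the rest. Up to 4 genes past the threshold, or else the 1 of smallest p, were named per pathway list, and per marker list those past the threshold and the one of highest mean. The alternatives were other size factors, DESeq2 1.42.0, limma 3.58.1 voom, the legacy quasi-likelihood method, other filters, each library left out, a replicate block and leaving out Rn45s and Lars2. Taking out the GC trend of each library, alone, with length or without knockout replicate 2, was added after seeing the data.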

Additional observations from a re-analysis of the deposited data

Results flagged for a closer look

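In knockout replicate 2, 47.5% of the listed counts lay outside annotated genes, a category that no comparison here uses, and this was above the 12.3% to 15.4% of the wild type libraries. Col4a4 and Col6a5 were too low to be tested, and their mean level was higher in the knockout than in the wild type. Col4a4 had a mean of 0.422 CPM in the knockout and 0.210 CPM in the wild type, with 16 of the 17 knockout counts in replicate 2. Col6a5 had a mean of 0.355 CPM in the knockout and 0.148 CPM in the wild type, from 8, 3 and 6 counts against 4, 1 and 6.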

How the results depend on the processing

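The class medians, the counts of calls and 48 of the named genes were recomputed under every alternative. Other size factors, the legacy quasi-likelihood method, both other filters and leaving out Rn45s and Lars2 changed no direction and no call among these genes. DESeq2 found 6 collagens lower (Col16a1, Col1a1, Col4a1, Col5a3, Col8a2 and Col9a2), where it called 2.28% of all genes lower, and 15 pathway genes lower. Only the numbers 2 and 3 are shared between the groups, no label says that they pair embryos, and the deviations of same-numbered libraries correlated at 0.207 and -0.141. A block fit thus draws its group difference from replicates 2 and 3 alone. With the replicate number as a replicate block, 6 collagens (Col11a2, Col16a1, Col1a1, Col5a3, Col8a2 and Col9a2) and 10 pathway genes were lower. That fit called 1.37% of all genes tested lower. Its medians were -0.37 for basement membrane, -0.74 for microfibrillar and -0.48 for other collagens, that of FACIT turned to -0.037, and Col5a2 reversed to -0.057. With limma voom, the FACIT median was -0.16, Col19a1 reversed to -0.54, Mia missed the threshold (adjusted p = 0.0628) and so did Ctsk (adjusted p = 0.0666), as it did with GC and length trends removed (adjusted p = 0.0502). With the GC trend removed, the basement membrane median was -0.21. With the GC trend removed and knockout replicate 2 left out, the medians were -0.74 for FACIT and -0.22 for basement membrane, 10 pathway genes were lower, where 1.68% of all genes tested were, and Col22a1 (-0.75), Col24a1 (-0.88) and Col19a1 (-1.67) reversed, and Col1a1 missed the threshold (adjusted p = 0.0964). With 1 library left out, 0 to 3 collagens and 0 to 11 pathway genes were lower, where 0 to 227 of all genes tested were. The highest of these, 1.57% of all genes tested, was without knockout replicate 2. The medians with 1 library left out ranged from -0.73 to 0.36 for FACIT and from -0.37 to -0.20 for basement membrane. Single-gene values ranged from -0.53 to 0.21 for Col11a1, -0.71 to 0.24 for Col12a1, -0.28 to 0.049 for Col14a1, -0.74 to 1.46 for Col22a1, -0.87 to 1.30 for Col24a1, -1.66 to 1.20 for Col19a1 and -0.22 to 0.13 for Col6a4. The causes were not tested. With 3 libraries a group, the precision rests on the spread between libraries, and genes under about 1 CPM also on few counts.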
